A study of Mus musculus with 2148 samples.

Results

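The collagen gene family was described over 44 genes, namely every gene of the raw count table whose symbol has the form Col, number, a, number, out of 48437 genes in all. The genes were read in single cells of mouse thymic epithelium by RamDA-seq, a full-length total RNA method in which each sorted cell gives a library of its own, over 2148 libraries, some cells having a second run. All mice were on a C57BL/6 background. Adult wild-type (WT) cells were mTEChi, mTEClo and cortical cells or cTECs (77 cells, 3.89%). The mTEChi are the mature medullary thymic epithelial cells with high MHC class II (620 cells, 31.3% of all). The mTEClo are the medullary cells with low MHC class II (18.0%), a sort that holds the immature cells but also others, as given below. Aire-KO mice of 5 weeks, all male and of an allele not described in the sources used here, gave mTEChi (17.1% of all cells) and mTEClo (7.78%). Newborn WT mice of 1 day, whose sex is not known, gave mTEChi (8.64%), mTEClo (6.26%) and cTECs (7.02%). Cells were sorted as DAPI-negative, CD45-negative and EpCAM-positive, and Ly51 separated cTECs (positive) from medullary cells (negative).

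Cells are not replicates, so the counts of the cells of a group that share age and sex were summed into 13 pools. The adult WT mTEChi fell into 4 pools, of which pool 1 was male at 4 weeks (71.6% of the cells), pool 2 male at 5 weeks (12 cells), pool 3 male at 6 weeks (82 cells) and pool 4 female at 4 weeks (82 cells). The adult WT mTEClo fell into 3 male pools, namely pool 1 at 8 weeks (60.8% of the cells), pool 2 at 5 weeks (74 cells) and pool 3 at 4 weeks (66 cells). The other groups had 1 pool each, which for adult cTECs held male mice of 6 weeks. The labels number no mice, so a pool can hold cells of 1 or several animals, and in these summed cells fewer cells of a type and less RNA per cell cannot be told apart. Levels are given as CPM, the reads of a gene per 1000000 reads of the pool, and between genes only per kb of exon. Pools held 7990398 to 351545799 reads and cells 203010 to 1823784.

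Collagens are built of alpha chains that wind around one another into a helix, and the chains a cell makes together decide which collagen it can assemble. Fibrillar collagens (such as types I, III and V) form the fibres of connective tissue, type IV forms the sheet of every basement membrane, type VI forms beaded microfibrils, type VII anchors epithelia to the tissue beneath, and the transmembrane chain of type XVII sits in the hemidesmosome of basal epithelial cells. In the thymus, mature medullary cells also transcribe genes of many other tissues, a part of them under the nuclear protein Aire, so that developing T cells meet these products. The 44 genes comprised 11 fibrillar, 6 basement membrane, 3 short-chain, 6 microfibrillar, 9 fibril-associated, 4 transmembrane and 2 multiplexin genes, Col7a1 of the anchoring fibril, and 2 others (Col26a1 and Col28a1). All 44 passed the filter on low counts. Reads were counted without strand, and 13 of the 44 genes share exon bases with another gene, at most 6.07% of the exon bases of a gene (Col9a3 with Tcfl5 on the opposite strand) and 5.65% for Col4a3 with C430014B12Rik.

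The labels were first set against marker genes. Aire was read at 1109.7 to 1844.6 CPM in the 4 adult WT mTEChi pools and at 26.1 CPM in the Aire-KO mTEChi pool, and all 5 thymic epithelial markers (Epcam, Foxn1, Krt8, Krt5 and Cdh1) exceeded 1 CPM in every group. The 5 cTEC markers summed to 5528 CPM in adult cTECs and at most 436.3 CPM in the 4 mTEChi pools, but also to 2293 CPM in newborn mTEClo. Tuft cell markers separated the adult mTEClo pools: cells with at least 5 reads of at least 4 of the 5 markers Dclk1, Trpm5, Avil, Pou2f3 and Ltc4s made up 7.83% of pool 1, 81.1% of pool 2 and 59.1% of pool 3. The 10 fibroblast markers summed to 106.3 to 197.4 CPM in adult WT mTEChi and 64.9 to 157.2 CPM in adult WT mTEClo, and 8 of them reached 1 CPM in each sort. Under 1 CPM were Pdgfra and Twist2 in mTEChi and Twist2 and Mfap5 in mTEClo. Twist2 stayed at 0 to 0.683 CPM in mTEChi and at 0 in mTEClo. In the Aire-KO mTEChi pool 1 cell stood apart with 8662 CPM over these markers, against 3245 CPM in the next of all cells and a median of 64.8 CPM, and values that rest on it are given with and without it.

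Collagen genes took 0.126% to 0.533% of all reads of a pool, and both ends lay in adult WT mTEClo, at 0.533%, 0.1502% and 0.126% in pools 1 to 3. The 4 adult WT mTEChi pools stood at 0.207% to 0.276%, the Aire-KO mTEChi pool at 0.168% and the newborn mTEClo pool at 0.413%. Which gene led depended on the sort. Per kb of exon, the highest levels in adult WT mTEChi were those of Col14a1, a fibril-associated collagen (33.7 CPM per kb), the hemidesmosome gene Col17a1 (25.6) and the basement membrane gene Col4a1 (22.97). In adult WT mTEClo the microfibrillar genes Col6a1 (108.7 CPM per kb) and Col6a2 (51.6) led the mean, followed by Col4a1 (48.1). That order rests on pool 1, where Col6a2 was at 129.5 CPM per kb. In pools 2 and 3 Col6a1 was still first, at 33.1 and 25.7 CPM per kb, but Col4a1 came next (29.5 and 23.9), and Col6a2, at 12.7 and 12.5, also lay below Col4a2, Col16a1 and Col4a4. In adult cTECs the leading genes were Col4a1 (57.1 CPM per kb), Col4a2 (55.4) and Col18a1 (48.7), the last coding for a basement membrane collagen whose end is released as endostatin. Newborn cTECs and newborn mTEClo both had Col4a2 first, at 113.7 and 105.8 CPM per kb, with Col4a1 next at 102.7 and 100.3.

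**Figure D1:**
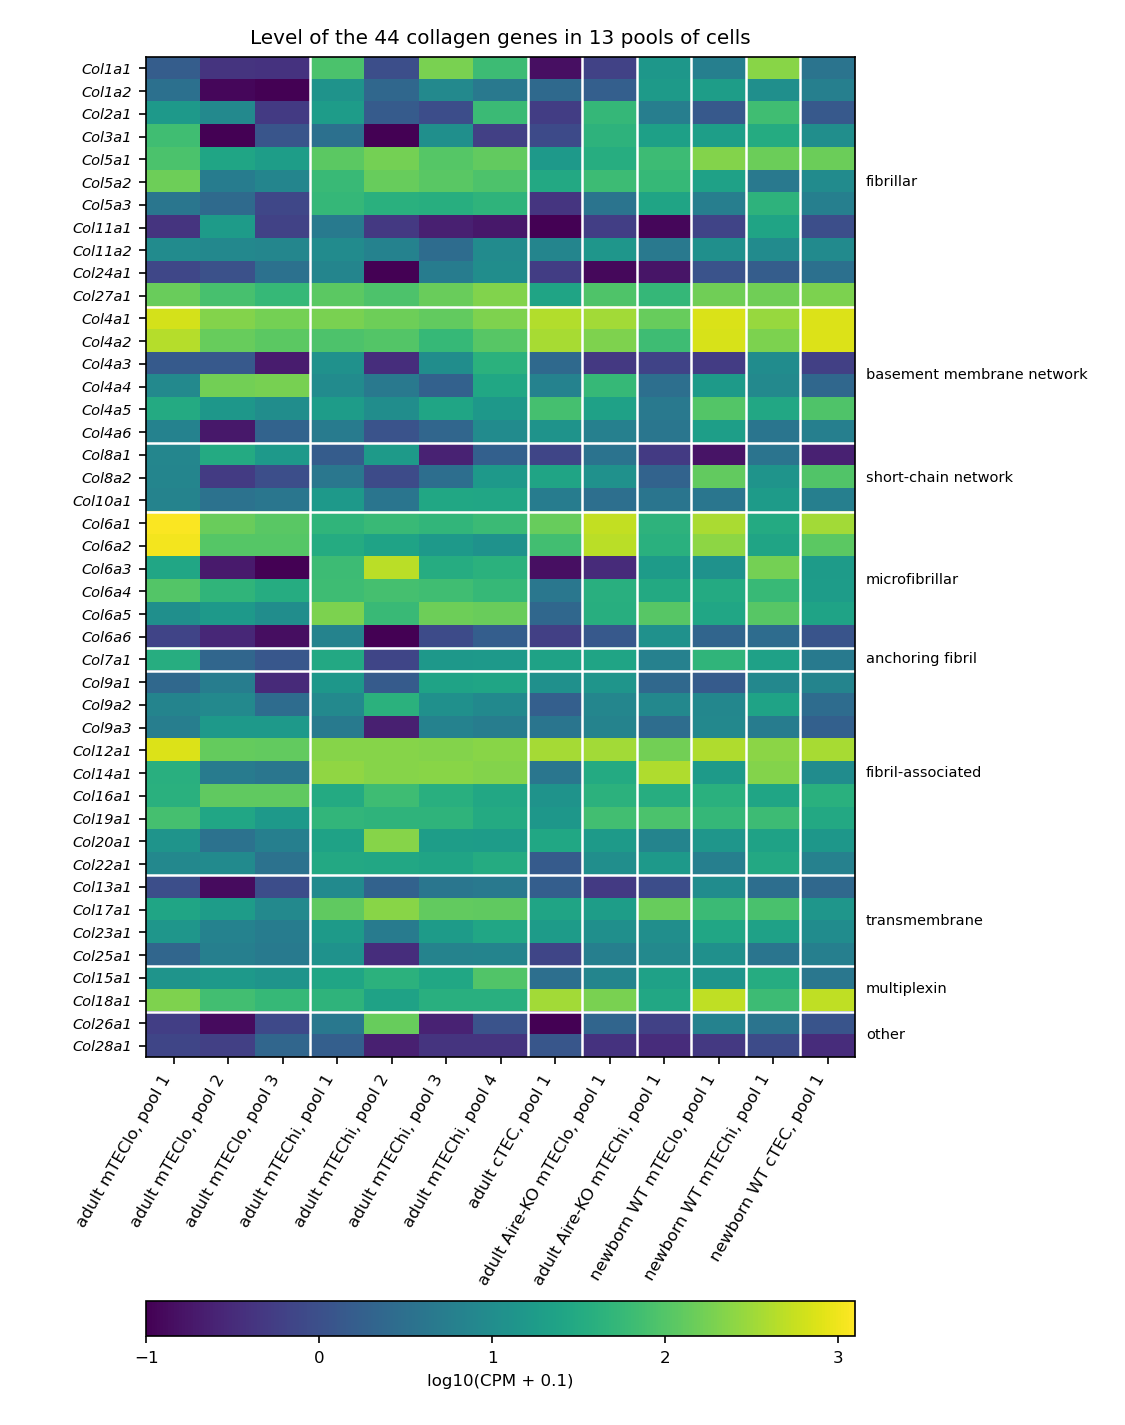
Level of the 44 collagen genes (rows, by class) in the 13 pools (columns), as log10 of CPM plus 0.1. Col6a1 and Col6a2 are bright in mTEClo and Col14a1 and Col17a1 in mTEChi, and the fibrillar genes Col1a1, Col2a1 and Col3a1 vary over pools of the same sort.

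The comparison of adult WT mTEChi with mTEClo asks which collagens differ between medullary cells sorted for high and for low MHC class II. The edgeR fit had no term for experimental batch, and mTEClo pool 1 was older than every mTEChi pool. Tuft-marker cells made up 81.1% of mTEClo pool 2 and 59.1% of pool 3. Sort, batch, age and cell composition were thus not separated in that fit. Of the 44 genes, 6 were higher in mTEChi (13.6%, against 7.59% of all 40148 genes tested) and 3 were lower (6.82%, against 4.47%), by edgeR's quasi-likelihood test. A gene was called where its fold was 2 or more and its p, adjusted over all genes by Benjamini-Hochberg, lay under 0.05. The higher genes were Col17a1, Col14a1, Col6a5, Col5a3, Col22a1 and Col1a1, and the lower ones Col6a1, Col6a2 and Col18a1. The median log2 fold change was 0.61 over the collagen genes and 0.27 over all genes. Levels in all mTEChi pools lay above those in all mTEClo pools for 10 collagen genes (background 13.3% of genes with reads) and below them for 4 (background 8.27%), or 22.7% and 9.09% of the family.

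**Figure D2:**
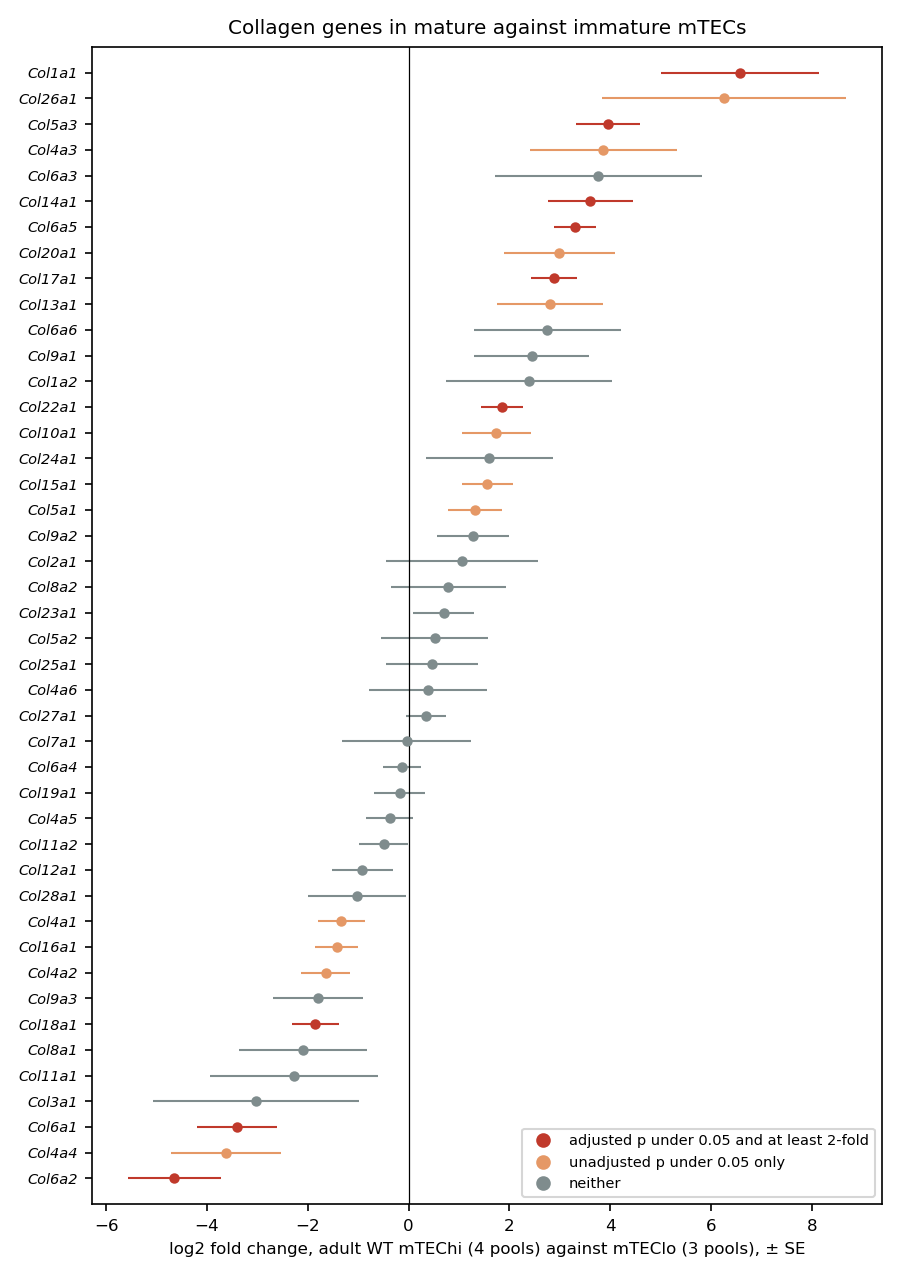
Log2 fold change of each collagen gene in adult WT mTEChi (4 pools) against mTEClo (3 pools), with bars of 1 SE. The 9 genes past the threshold are drawn in red, from Col1a1 at 6.58 to Col6a2 at -4.64.

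Among the transmembrane collagens, Col17a1, which links the keratin filaments of basal epithelial cells to the basement membrane, was read at 125.6, 231.9, 129.4 and 127.6 CPM in mTEChi pools 1 to 4. In mTEClo pools 1 to 3 it stood at 26.04, 18.1 and 8.27 CPM. Every mTEChi pool thus lay above every mTEClo pool, with a log2 fold change of 2.89 ± 0.46 (SE) and an adjusted p of 0.00865 in edgeR's test. At least 5 reads of Col17a1 were found in 71.1% of mTEChi cells and 25.8% of mTEClo cells. Over experimental batches its level was 97.3 to 183.5 CPM in mTEChi and 8.27 to 34.7 CPM in mTEClo. The bases just before the annotated start of Col17a1 hold 2 matches to TATAAA, the letters of the TATA box of core promoters. TATAAA on either strand was found in 9.08% of promoter windows of this length. Those windows were not aligned to the start, so 9.08% is no background rate for these bases. The bases are printed here in lower case with the motif in capitals, from RefSeq on GRCm38.p6, chr19:47692095-47692292, minus strand:
Col17a1: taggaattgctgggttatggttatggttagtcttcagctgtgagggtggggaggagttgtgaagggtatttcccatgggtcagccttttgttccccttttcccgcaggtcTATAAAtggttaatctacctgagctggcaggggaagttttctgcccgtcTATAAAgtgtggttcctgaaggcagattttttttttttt

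The other transmembrane genes gave no call. Col13a1, a cell-adhesion collagen, had a log2 fold change of 2.81 ± 1.05 with an unadjusted p of 0.0263 and an adjusted p of 0.101 in edgeR's test. Col23a1 lay between 5.01 and 26.2 CPM in mTEChi and between 5.18 and 14.0 CPM in mTEClo. Col25a1 lay between 0.250 and 12.4 CPM and between 2.18 and 5.70 CPM, so that both genes overlapped between the sorts.

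The microfibrillar genes moved in both directions. Col6a1 and Col6a2 code for the chains that every type VI collagen needs together with a longer chain, which can be that of Col6a3, Col6a4, Col6a5 or Col6a6. Col6a1 was read at 47.7, 60.3, 49.4 and 63.01 CPM in mTEChi and at 1170.5, 144.9 and 112.8 CPM in mTEClo. Col6a2 was read at 33.0, 23.7, 16.1 and 12.1 CPM in mTEChi and at 1077.9, 105.8 and 104.02 CPM in mTEClo. Both were low in every mTEChi pool and highest by far in the mTEClo pool of 8 weeks, which had the fewest tuft-marker cells. Their log2 fold changes were -3.41 ± 0.79 (adjusted p = 0.0285) and -4.64 ± 0.92 (adjusted p = 0.0171) in edgeR's test. Without that pool both calls were kept, but the log2 fold changes shrank to -1.39 for Col6a1 and -2.47 for Col6a2.

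Col6a5, one of the longer chains, went the other way, at 192.3, 60.3, 159.3 and 143.6 CPM in mTEChi and 10.8, 15.8 and 9.95 CPM in mTEClo. Its log2 fold change of 3.30 ± 0.42 had the smallest adjusted p of the family (0.00402, edgeR), and it was the one collagen gene that passed the threshold under all alternatives run. Col6a3, the usual partner of Col6a1 and Col6a2, was at 64.3, 469.4, 35.04 and 40.9 CPM in mTEChi and at 26.5, 0.100 and 0 CPM in mTEClo, without a call. Col6a4 overlapped, at 55.4 to 77.2 CPM against 34.6 to 101.4 CPM, and Col6a6 stayed under 7 CPM in both sorts. The letters before the starts of Col6a1 and Col6a2, which lie near each other on chromosome 10 and moved together, are given because both genes were lower in mTEChi. The GC box (GGGCGG on either strand, in capitals below) has 1 match before Col6a2, where 32.7% of all promoter windows of that length hold one. It has none before Col6a1. Of promoter windows of the Col6a1 length 13.5% hold one, but those windows were not aligned to the start. The 13.5% is thus no background rate for the bases before Col6a1. From RefSeq, GRCm38.p6, minus strand, Col6a1 is chr10:76726169-76726294 and Col6a2 is chr10:76623631-76623880:
Col6a1: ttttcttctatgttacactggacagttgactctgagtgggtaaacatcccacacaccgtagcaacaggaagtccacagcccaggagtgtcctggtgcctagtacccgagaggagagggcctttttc
Col6a2: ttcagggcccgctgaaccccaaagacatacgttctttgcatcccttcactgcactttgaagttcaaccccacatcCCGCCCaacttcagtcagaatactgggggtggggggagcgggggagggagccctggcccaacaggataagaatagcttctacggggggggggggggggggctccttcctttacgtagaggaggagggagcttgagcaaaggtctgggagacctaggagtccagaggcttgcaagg

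Among the fibril-associated collagens, which coat fibrils and link them to other matrix, Col14a1 was read at 259.6, 224.4, 239.2 and 221.05 CPM in mTEChi and at 38.1, 4.94 and 4.03 CPM in mTEClo. Its mTEChi pools were nearly level, and its log2 fold change was 3.61 ± 0.84 (adjusted p = 0.0289, edgeR). Col22a1, a collagen of tissue junctions, was read at 29.9, 28.4, 25.0 and 33.3 CPM against 8.11, 9.17 and 3.41 CPM, a log2 fold change of 1.85 ± 0.42 (adjusted p = 0.0256, edgeR). Col16a1 was lower in mTEChi (28.5 to 66.96 CPM against 39.4, 127.3 and 125.6 CPM) without passing the threshold, at -1.42 ± 0.43 with an adjusted p of 0.0592 in edgeR's test. Col12a1 ranged from 215.8 to 234.3 CPM in mTEChi and from 132.2 to 778.9 CPM in mTEClo, and Col19a1 from 32.2 to 49.4 and from 16.4 to 78.03 CPM. Of the cartilage collagen chains, Col9a3 lay at 0.125 to 6.36 CPM in mTEChi and 5.64 to 16.3 CPM in mTEClo.

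The fibrillar class held 2 calls, both higher in mTEChi. Col5a3, a minor chain that regulates fibril width, was read at 52.8, 40.3, 36.4 and 45.6 CPM in mTEChi and at 3.96, 2.50 and 0.639 CPM in mTEClo, a log2 fold change of 3.95 ± 0.64 (adjusted p = 0.00900, edgeR). Col1a1, the main chain of bone and skin collagen, was read at 87.2, 0.876, 185.8 and 63.9 CPM in mTEChi and at 1.49, 0.317 and 0.298 CPM in mTEClo, so that the mTEChi pool of 12 cells overlapped with mTEClo. Its log2 fold change was 6.58 ± 1.57 (adjusted p = 0.0309, edgeR). Its partner chain Col1a2 was at 12.8, 2.25, 8.45 and 4.51 CPM in mTEChi, below Col1a1 per kb in pools 1, 3 and 4 and above it in pool 2, against 3.16, 0.0167 and 0 CPM in mTEClo. Col3a1 stayed at 0 to 11.0 CPM in mTEChi and reached 70.7 CPM in mTEClo pool 1 with 0 and 1.11 CPM in the others. Col5a2 lay at 60.96 to 139.04 CPM in mTEChi and at 156.1, 5.20 and 7.16 CPM in mTEClo. Col27a1, a fibrillar collagen of cartilage, was at 91.6 to 211.3 CPM and at 142.96, 80.8 and 55.2 CPM.

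The multiplexin Col18a1 was lower in mTEChi, at 46.1, 22.5, 38.8 and 38.4 CPM against 200, 71.1 and 56.5 CPM, with a log2 fold change of -1.85 ± 0.47 (adjusted p = 0.0384, edgeR). No pools overlapped, but the call was lost when any 1 of the mTEChi pools or mTEClo pool 1 or 2 was left out, and without mTEClo pool 1 the log2 fold change was -0.97. Col15a1, the other multiplexin, was read at 25.7, 43.7, 27.1 and 96.3 CPM in mTEChi and at 13.2, 16.2 and 13.0 CPM in mTEClo. Its log2 fold change of 1.56 ± 0.51 had an adjusted p of 0.0716 in edgeR's test.

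The basement membrane genes gave no call. Col4a1 and Col4a2, the chains of the ubiquitous type IV network, stood at 132.3 to 206.2 and 56.4 to 109.1 CPM in mTEChi and at 678.7, 220.5 and 178.1 CPM and 440.3, 139.96 and 116.04 CPM in mTEClo. All mTEChi pools of Col4a2 lay below all mTEClo pools, with a log2 fold change of -1.65 ± 0.49 and an adjusted p of 0.0587 in edgeR's test. Col4a1 gave -1.33 ± 0.47 and 0.0877. Col4a5 lay at 10.3 to 25.8 against 10.3 to 31.6 CPM and Col4a6 at 1.00 to 9.52 against 0.0834 to 6.39 CPM. Col7a1, the anchoring fibril collagen of stratified epithelium, was at 30.0, 0.626, 15.3 and 16.4 CPM in mTEChi and at 35.3, 2.18 and 1.21 CPM in mTEClo, so that the sorts overlapped over a wide spread.

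**Figure D3:**
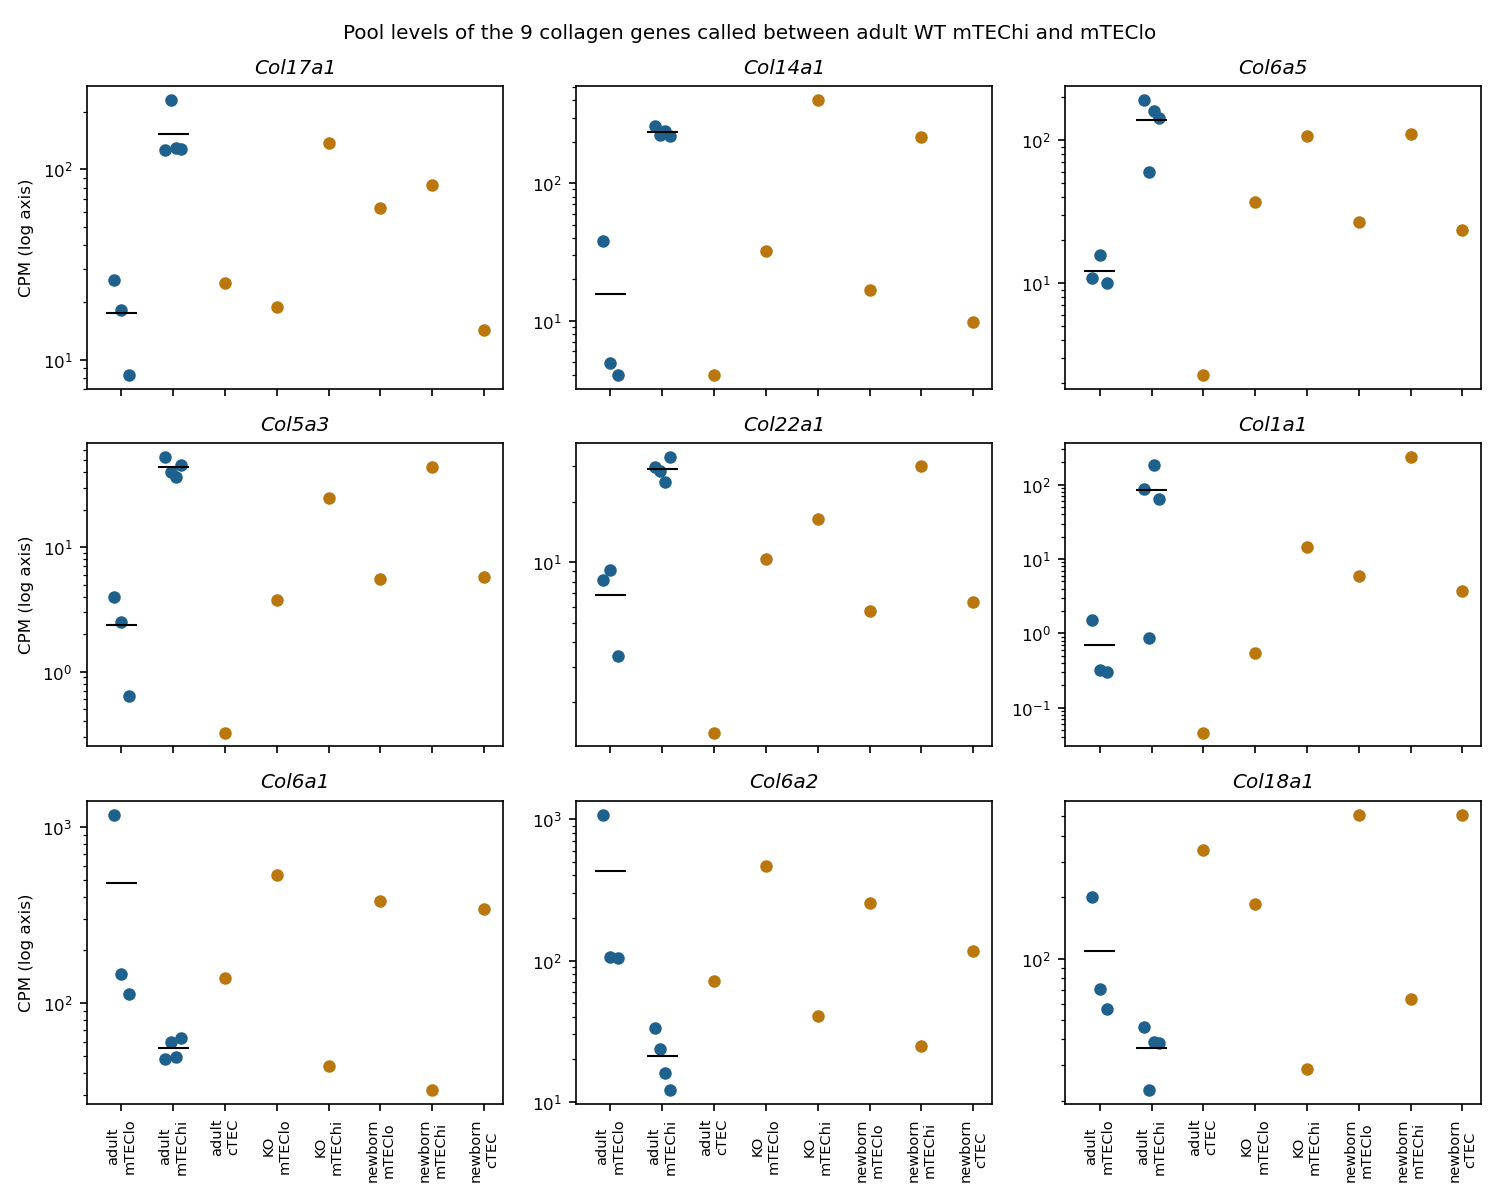
CPM (log axis) of the 9 collagen genes past the threshold in each pool of the 8 groups, with blue points and a line at the mean for groups of several pools and ochre points for single pools. Col17a1, Col14a1, Col6a5, Col5a3 and Col22a1 sit higher in all mTEChi pools than in all mTEClo pools, whereas Col1a1 of the 12-cell pool lies at 0.876 CPM among the mTEClo values.

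The number of collagen genes past the threshold rested on single pools. It was 4 of the 9 genes without mTEChi pool 1, 3 without mTEChi pool 4 and 5 without mTEClo pool 2, while it was 14 without mTEClo pool 1. Over all genes the share called was 12.1% in the full fit and 5.89%, 5.68%, 4.97% and 10.2% at these settings. The Col6a1 call was lost without any 1 of the 4 mTEChi pools, and that of Col6a2 without mTEChi pool 4. Col14a1 and Col22a1 were lost without mTEChi pool 1 or 4 or mTEClo pool 2, and Col14a1 also without mTEClo pool 3. Col1a1 was lost without mTEChi pool 1, 3 or 4 or mTEClo pool 2 or 3, while Col17a1 and Col5a3 passed without any 1 pool. Leaving out the 45.7% of all cells with at least 5 reads of at least 2 fibroblast markers left 3 genes (3.91% of all genes were then called), of which 1 (Col6a5) was among the 9. That rule rested on Pdgfrb and Dcn, which 40.4% and 40.3% of all cells carried. The 6 cartilage markers summed to 230.1 to 393.01 CPM in mTEChi and 330.2 to 487.9 CPM in mTEClo, although Acan, Comp and Matn3 among them reached 86.4, 66.9 and 18.1 CPM in an mTEChi pool and stayed under 1 CPM in every mTEClo pool. Of 7 thymocyte markers, 2 were called higher in mTEChi and 0 lower by edgeR, where 7.59% and 4.47% of all genes were. The part of fibroblast, cartilage, tuft and thymocyte transcripts in these differences was not tested.

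Col4a3 and Col4a4 differed from the other basement membrane genes. Their chains assemble together with that of Col4a5 into the network of the kidney glomerulus, and the genes start 71 bases apart on opposite strands of chromosome 1. Col4a3 was read at 11.5, 0.250, 10.3 and 41.5 CPM in mTEChi and at 1.37, 1.30 and 0.107 CPM in mTEClo. Col4a4 was read at 9.48, 4.51, 1.77 and 27.1 CPM in mTEChi and at 8.52, 167.8 and 180 CPM in mTEClo. The genes thus leaned in opposite directions, with log2 fold changes of 3.86 ± 1.46 (adjusted p = 0.104) and -3.62 ± 1.10 (adjusted p = 0.0604) that did not pass edgeR's threshold. The whole stretch between the annotated starts is short enough to print, on the plus strand of GRCm38.p6 from RefSeq at chr1:82586850-82586920, and it holds no GC box, CCAAT or TATAAA:
Col4a4 to Col4a3: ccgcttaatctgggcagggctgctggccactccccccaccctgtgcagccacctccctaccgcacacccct

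The mTEClo reads of Col4a4 came mostly from the cells with tuft markers, a split chosen after these values were seen. In the tuft-marker cells of the adult WT mTEClo pools Col4a4 was at 78.4, 203.6 and 325.5 CPM, against 2.28, 1.41 and 1.23 CPM in the other cells of the same pools. The Aire-KO mTEClo pool had 271.5 CPM in tuft-marker cells and 2.42 CPM in the others, and the newborn mTEClo pool 194.02 and 3.82 CPM. In all 5 pools the tuft-marker cells (17, 60, 39, 26 and 7 cells) were higher, with at least 5 reads of Col4a4 in 29.4% to 71.8% of them. Col4a3 was at 0, 1.56, 0, 0 and 0 CPM in the tuft-marker cells of these 5 pools, while over all cells 33 had at least 5 reads of both genes and 65 of Col4a3 alone, and 10.4% of the cells with Col4a4 also had Col4a3. When all 5 markers were required, Col4a4 was at 149.9, 326.3, 353.7, 318.4 and 511.4 CPM in the tuft-marker cells and at 4.51, 4.44, 1.17, 10.9 and 4.26 CPM in the others. The tuft-marker cells were then 7, 40, 35, 20 and 2, so the newborn value rests on 2 cells.

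Other collagen genes also differed between these cells. Col16a1 was at 42.2, 152.1 and 217.2 CPM in the tuft-marker cells and at 39.1, 11.8 and 13.4 CPM in the other cells of the 3 adult WT pools. In Aire-KO mTEClo it was also higher in tuft-marker cells (117.1 against 24.9 CPM), but not in newborn mTEClo (32.5 against 40.4 CPM), and with all 5 markers required adult pool 1 turned as well (32.2 against 39.6 CPM). Col9a3 was at 11.8, 19.8 and 27.4 CPM against 5.08, 0.189 and 2.51 CPM in the adult WT pools. The genes that led in mTEClo were low in tuft-marker cells of pool 3, where Col6a1 stood at 1.70 against 248.9 CPM, Col4a1 at 14.6 against 378.5 CPM and Col12a1 at 13.7 against 277.5 CPM. In pools 1 and 2 these genes were read in both kinds of cell, Col6a1 at 804.3 and 138.3 CPM in tuft-marker cells and 1203.2 and 175.7 CPM in the others. These values depended on the split. With all 5 markers required Col6a1 was at 142.5 against 1199.7 CPM in pool 1 and at 12.5 against 281.4 CPM in pool 2, and Col12a1 in pool 2 went from 107.8 to 3.55 CPM in tuft-marker cells, with 269.6 CPM in the others.

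**Figure D4:**
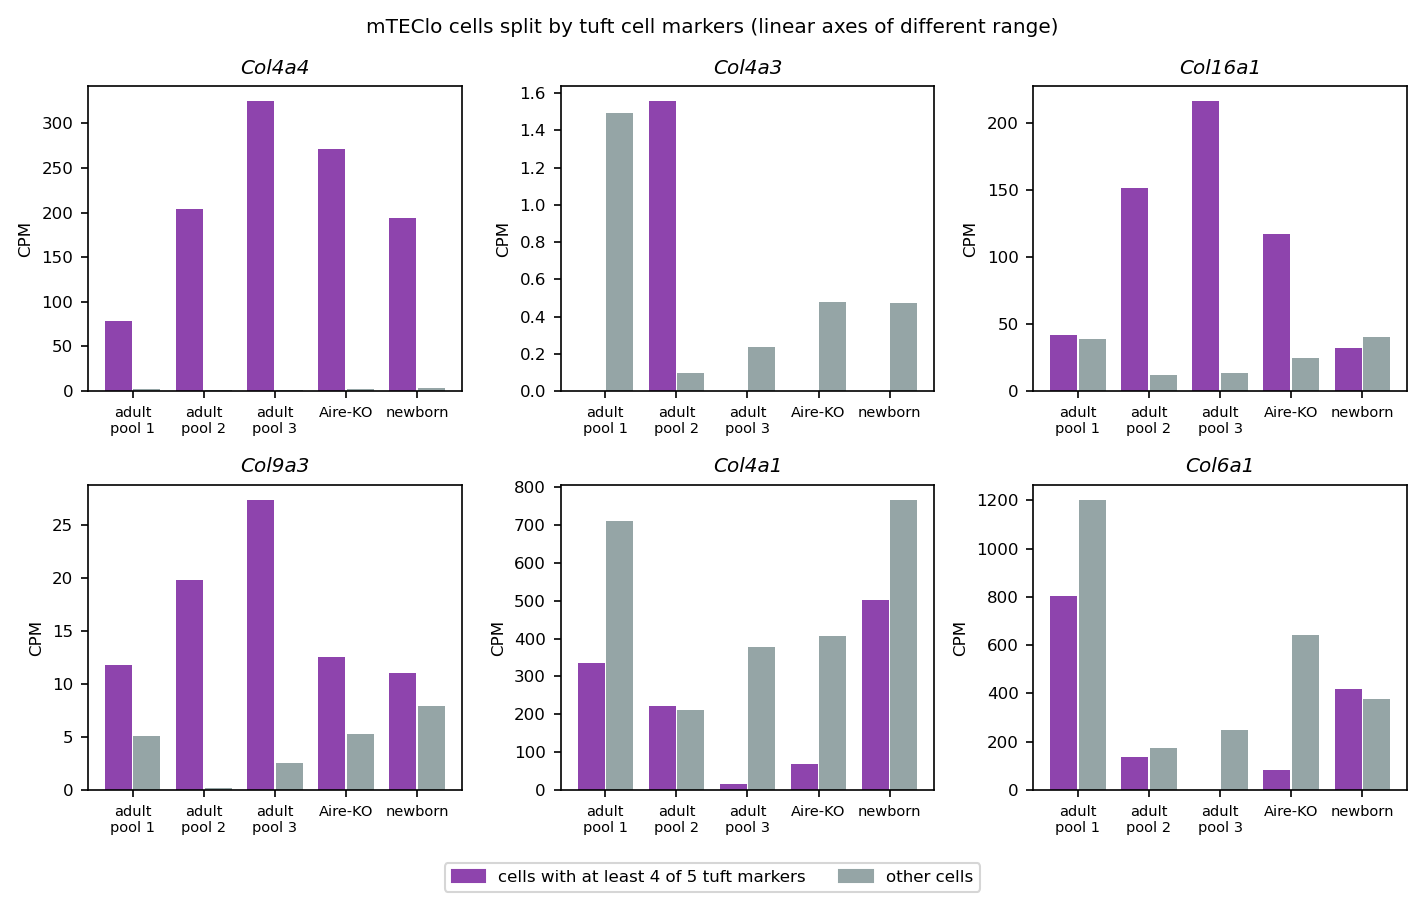
CPM of 6 collagen genes in mTEClo cells with at least 4 of the 5 tuft markers (purple) and in the other cells (grey) of the same pool, on linear axes that differ between panels. Col4a4 is high in the purple bars of all 5 pools, from 78.4 to 325.5 CPM, and at most 3.82 CPM in the grey bars, and Col4a3 stays under 2 CPM in both.

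At the level of single cells the family split into genes read in most cells and genes read in a few. In adult WT mTEChi, 8 of the 44 genes had at least 5 reads in 50% or more of the cells, led by Col4a1 (85.3%), Col27a1 (75.3%), Col14a1 (75.2%), Col12a1 (74.03%) and Col17a1 (71.1%). For 22 genes 10 cells or fewer of the 620 held at least 50% of the reads, with 7 cells for Col1a1, 4 for Col4a3 and 3 for Col2a1. A single cell carried 43.8% of the Col11a1 reads. Mature cells that read Col1a1 and Col1a2 were mostly different cells, with 9 cells having both, 96 Col1a1 alone and 38 Col1a2 alone, where 7.96 cells with both would follow from the shares of each gene alone. By contrast the levels of Col4a1 and Col4a2 rose together over mTEChi cells (Spearman's rho 0.728). There 76.4% of the cells with Col4a1 had Col4a2 and 95.1% of those with Col4a2 had Col4a1, where 85.3% of all mTEChi cells had Col4a1. Such shares depend on how often each gene is read. In mTEClo Col6a1 and Col6a2 went together (rho 0.955), and 96.4% and 98.8% had the other. In mTEChi 52 cells had both Col6a1 and Col6a2, where 23.2 would follow from the shares of each gene alone. These were 31.1% of the cells with Col6a1 and 60.5% of those with Col6a2. Col6a1 and Col6a3, a pair added after the pool levels were seen, were together in 14 mTEChi cells, where 13.5 would follow. Col6a3 alone was in 36 cells. Free RNA from other cells was not measured, and detection of a gene in a cell depends on its depth.

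The comparisons of adult cTECs rest on 1 cTEC pool, whose spread the test took from the other groups. Its cells came from 1 experimental batch and from mice of 6 weeks, and the fit had no term for batch. Sort, batch and age were thus not separated, against mTEChi or against mTEClo. Against mTEChi, Col18a1 was higher (342.3 CPM in cTECs; log2 fold change 3.50 ± 0.59, adjusted p = 0.0207, edgeR), a share of 2.27% of the family against 1.7% of all genes. Col6a5, Col5a3, Col22a1 and Col6a4 were lower, 9.09% of the family against 1.15%. Col6a5 was read at 2.26 CPM in cTECs (-5.67 ± 0.79, adjusted p = 0.0123), Col5a3 at 0.323 CPM (-6.81 ± 1.25, adjusted p = 0.0280), Col22a1 at 1.41 CPM (-4.10 ± 0.77, adjusted p = 0.0302) and Col6a4 at 4.18 CPM (-3.73 ± 0.74, adjusted p = 0.0362), all by edgeR. By unadjusted p under 0.05, 4 collagen genes were higher and 11 lower (8.56% and 10.2% of all genes). All of the called cTEC values lay outside the range of the 4 mTEChi pools. The count of 5 (2.85% of all genes were called) was 1 without mTEChi pool 1, 3 or 4 (1.29%, 1.34% and 1.2% of all genes), 13 without mTEClo pool 1, which shares the fit (6.39%), and 1 without the fibroblast-marker cells (0.847%).

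Of the 6 basement membrane genes, 4 lay above all mTEChi pools in adult cTECs, without a call. Col4a5 stood at 77.9 CPM against 10.3 to 25.8 CPM in mTEChi (2.43 ± 0.59, adjusted p = 0.0692, edgeR), Col4a2 at 366.6 CPM (2.31 ± 0.64, adjusted p = 0.0998) and Col4a1 at 426.1 CPM (1.58 ± 0.63, adjusted p = 0.228), and Col4a6 stood at 12.8 CPM. Col4a3 and Col4a4, at 2.44 and 6.52 CPM, lay within the mTEChi pools. At least 5 reads of Col4a5 were found in 83.1% of cTECs and 31.5% of mTEChi cells. Col1a1 was covered by 3 reads in the 77 cTECs, Col14a1 stood at 4.00 CPM and Col17a1 at 25.1 CPM, all 3 below every mTEChi pool. Col14a1 (-5.61 ± 1.57, adjusted p = 0.102) and Col17a1 (-2.34 ± 0.72, adjusted p = 0.1301) did not pass edgeR's threshold.

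Against mTEClo, edgeR called 0 collagen genes in cTECs, where 0.0423% of all genes were called higher and 0.0149% lower. By edgeR's unadjusted p under 0.05, 2 collagen genes were higher and 7 lower (5.5% and 4.72% of all genes). DESeq2 called 0 higher and 6 lower, where it called 2.65% and 4.09% of all genes. The smallest p belonged to Col6a4, at 4.18 CPM against 101.4, 48.5 and 34.6 CPM (-3.87 ± 0.75, adjusted p = 0.127, edgeR). Col16a1 (-2.85 ± 0.78, adjusted p = 0.258), Col6a5 (-2.37 ± 0.65, adjusted p = 0.258), Col22a1 (-2.24 ± 0.69, adjusted p = 0.309) and Col4a5 (2.06 ± 0.64, adjusted p = 0.314) followed in edgeR's test. The 7 thymocyte markers summed to 386.5 CPM in the adult cTEC pool, 51.4 to 184.8 CPM in mTEChi and 30.0 to 87.7 CPM in mTEClo, and their part in these values was not tested.

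Aire-KO mTEChi were compared with WT mTEChi to see which collagens differ where Aire is lost. Experimental batch had no term in the fit, so genotype and batch were not separated, here or in mTEClo. edgeR called 0 of the 44 genes and 0% of all genes in either direction, with 1 pool of Aire-KO cells. At an unadjusted p under 0.05, 1 collagen gene was lower (2.27%, against 2.87% of all genes) and 0 were higher (against 2.29%). DESeq2 called 1, which was lower, where it called 2.03% of all genes lower. The gene under that unadjusted p was Col24a1, a fibrillar collagen of developing bone, at 0.0683 CPM in Aire-KO cells and 7.30, 0, 5.24 and 10.0 CPM in WT pools (-6.09 ± 2.66, unadjusted p = 0.0491, adjusted p = 0.832, edgeR). The Aire-KO level lay below all 4 WT pools for 15 collagen genes (background 14.4%) and above them for 6 (16.9%), and 34 of the 44 log2 fold changes were negative, with a median of -0.66 where that of all genes was -0.01.

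The 1 Aire-KO mTEChi cell that stood apart in fibroblast markers carried most of the reads of 5 collagen genes. It held 99.4% of the pool's Col6a3 reads, 96.6% of Col1a1, 96.0% of Col3a1, 91.4% of Col6a6 and 90.9% of Col1a2, beside 97.6% of Pdgfra and 81.2% of Postn, which are fibroblast markers, and it also had reads of the epithelial gene Epcam. Col1a1 was at 14.5 CPM in the pool with this cell and 0.491 CPM without it, where the WT pools had 87.2, 0.876, 185.8 and 63.9 CPM. Col6a3 went from 17.9 to 0.0995 CPM, where the lowest WT pool had 35.04 CPM. Both then lay below all WT pools, with log2 fold changes of -7.14 ± 2.71 (unadjusted p = 0.0284) for Col1a1 and -10.29 ± 4.78 (unadjusted p = 0.0617) for Col6a3, and the smallest adjusted p of the family was 0.821 in edgeR's test.

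Without the cell 18 collagen genes lay below all WT pools and 2 above, where 14.6% and 16.8% of all genes did. No WT cell was left out. Aire-KO levels of genes high in the removed cell could thus only fall, while WT levels carried by single cells were kept. The median log2 fold change was -0.91 with 37 of the 44 negative, against a median of -0.01 over all genes. In edgeR's test 3 collagen genes then had an unadjusted p under 0.05, all lower (Col1a1, Col4a5 and Col24a1), where 2.91% of all genes did, and the count of calls stayed at 0. The share of cells with at least 5 reads of Col1a1 was 2.66% of the Aire-KO cells and 15.5%, 0%, 30.5% and 13.4% in the WT pools, the 0% being 0 of 12 cells. For Col6a3 it was 0.592% against 8.78%, 16.7%, 6.10% and 4.88%. For Col4a3 it was 2.96% against 6.98%, 0%, 11.0% and 8.54%, with 0.560 CPM in the Aire-KO pool. Genes that most mTEChi cells read lay within, above or below the WT pools. Col17a1 was at 137.9 CPM in Aire-KO mTEChi, within the WT range, with a log2 fold change of 0.12 ± 0.60 (SE), and Col14a1 was at 404.8 CPM, above the 221.05 to 259.6 CPM of the WT pools. Col27a1, Col12a1 and Col5a1 lay below all WT pools, and without the cell Col4a1 did too (129.6 CPM against at least 132.3 CPM), none with an unadjusted p under 0.05 in edgeR's test.

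In mTEClo, edgeR called 0 collagen genes between Aire-KO and WT (0% of all genes upward and 0.00249% downward), and DESeq2 called 0 too. By unadjusted p under 0.05, 1 gene was higher (2.04% of all genes) and 0 lower (1.52%). This was Col6a5, at 37.2 CPM in Aire-KO against 10.8, 15.8 and 9.95 CPM (1.58 ± 0.51, unadjusted p = 0.0145, adjusted p = 1, edgeR). The Aire-KO pool lay above all WT pools for 10 genes (background 25.6%) and below for 5 (11.6%). Without WT mTEClo pool 1, 1 gene was called, and 0.00761% of all genes. The difference between the Aire-KO effects in mTEChi and mTEClo, tested in the same fit, was called for 0 collagen genes by edgeR, with 0% of all genes called. DESeq2 called 0 as well, and at an unadjusted p under 0.05 edgeR had 0 in each direction, against 1.82% and 1.92% of all genes.

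Inside the Aire-KO mice, mTEChi and mTEClo had 1 pool each, so that CPM ratios carry counting intervals and no test. Of 36 collagen genes with at least 5 CPM in the higher pool, 9 were at least 2-fold higher in mTEChi (background 20.3% of all genes at that level) and 16 lower (18.9%). Without the cell that stood apart 5 of 32 genes were higher (Col5a3, Col6a5, Col14a1, Col17a1 and Col15a1; background 20.3%) and 16 lower (19%), and without all fibroblast-marker cells 4 were higher (19.2%) and 16 lower (17%). The largest ratios down were Col4a4 (18.0-fold, 95% interval 16.8 to 19.3), Col6a1 (12.1-fold), Col6a2 (11.6-fold), Col2a1 (9.74-fold) and Col18a1 (6.50-fold). The largest up were Col6a3 (82.2-fold), Col1a1 (26.6-fold), Col14a1 (12.7-fold), Col1a2 (10.2-fold) and Col6a6 (9.26-fold). Apart from Col14a1 the largest ratios up rest on that cell, and without it Col1a1 stood at 0.491 CPM in mTEChi and 0.545 CPM in mTEClo, and Col6a3 at 0.0995 and 0.218 CPM.

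Newborn and adult mTEChi were compared by age. The fit had no term for batch, and the sex of the newborn mice is not known. Age, batch and sex were thus not separated, here or in the mTEClo and cTEC comparisons by age below. edgeR called 0 of the 44 genes (0% of all genes in each direction), and DESeq2 called 0. At an unadjusted p under 0.05 there were 0 upward and 0 downward, against 1.58% and 0.503% of all genes. The newborn pool lay above all adult pools for 10 genes (background 20.8%) and below for 5 (10.2%). Per kb of exon the highest newborn levels were those of Col4a1 (39.4 CPM per kb), Col1a1 (35.8), Col14a1 (30.7) and Col4a2 (29.1).

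In mTEClo the newborn pool stood above the highest adult pool for Col4a1, Col4a2, Col4a5 and Col4a6, but the comparison gave no call by edgeR (0 of 44 genes, and 0% of all genes). At an unadjusted p under 0.05, 6 collagen genes were higher (13.6% against 5.73% of all genes) and 1 lower (2.27% against 4.38%). DESeq2 called 2 higher and 1 lower, where it called 2.68% and 3.28% of all genes. Col4a5 was at 99.8 CPM in newborn and 31.6, 14.8 and 10.3 CPM in adult pools (2.27 ± 0.63, adjusted p = 0.292). Col8a2, a short-chain collagen of sheets such as that under the corneal endothelium, was at 132.5 CPM against 7.15, 0.417 and 0.852 CPM (5.37 ± 1.58, adjusted p = 0.309). Col18a1 was at 510.8 CPM against 200, 71.1 and 56.5 CPM (2.09 ± 0.65, adjusted p = 0.337), and Col13a1 (3.93 ± 1.30) and Col5a1 (2.15 ± 0.72) had adjusted p values of 0.363 and 0.368, all by edgeR. The newborn pool lay above all adult pools for 21 genes (background 31.7%) and below for 3 (16.1%). Without adult mTEClo pool 1, 9 genes were called, all higher, where 0.711% of all genes were called higher. The 5 tuft markers summed to 317.8 CPM in newborn and 535.1 to 4699 CPM in adult mTEClo, and the 5 cTEC markers to 2293 CPM and 237.1 to 850 CPM. Their part in these values was not tested.

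The difference between the newborn effects in mTEChi and mTEClo was called for 0 collagen genes by edgeR and 0 by DESeq2, with 2 at an unadjusted p under 0.05 (2.27% higher and 2.27% lower, against 2.12% and 1.75% of all genes). These were Col17a1 (-2.58 ± 0.89, unadjusted p = 0.0192) and Col8a1 (7.87 ± 3.29, unadjusted p = 0.0420), both with an adjusted p of 1 in edgeR's test. Newborn mTEClo had Col17a1 at 62.6 CPM and newborn mTEChi at 82.6 CPM. Col8a1 was covered by only 5 reads in newborn mTEClo (0.0624 CPM) and stood at 3.71 CPM in newborn mTEChi.

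The newborn sorts came from the same 5 experimental batches, which served as repeats of the sort. Between newborn mTEChi and mTEClo, 13 of 40 genes were at least 2-fold higher (background 24.2%) and 13 lower (15.9%). The largest ratios were Col2a1 (54.5-fold, 95% counting interval 44.9 to 66.9), Col11a1 (42.7-fold), Col1a1 (40.0-fold), Col4a3 (22.3-fold) and Col6a3 (14.5-fold) up. Col6a1 (11.9-fold), Col6a2 (10.3-fold), Col8a2 (10.0-fold), Col18a1 (8.06-fold) and Col4a6 (5.05-fold) were the largest down. In all 5 batches mTEChi was higher for 7 genes (Col1a1, Col2a1, Col4a3, Col6a3, Col9a1, Col14a1 and Col15a1) and lower for 10 that included Col4a1, Col4a2, Col6a1, Col6a2 and Col18a1, where 16.2% of all genes with reads were higher and 14.7% lower in every batch. An edgeR fit over the batch sums, without a term for batch, was added after these values were seen. In it 11 of 43 collagen genes tested were higher in mTEChi (background 19.4%) and 11 lower (11.7%). Batches take the place of replicates there, and whether they hold separate mice is not given. Col1a1 had a log2 fold change of 5.66 ± 0.78, Col2a1 of 5.99 ± 0.98 and Col14a1 of 3.70 ± 0.81, while Col6a1 stood at -3.44 ± 0.74, Col4a2 at -1.77 ± 0.18 and Col18a1 at -2.90 ± 0.36. Col1a1, for example, was at 143.9, 304.3, 143.3, 315.7 and 297.5 CPM in mTEChi and at 1.81, 5.82, 0.447, 14.7 and 1.67 CPM in mTEClo of the same batches. Single cells carried much of some genes, as 1 cell held 58.8% of the newborn mTEChi reads of Col11a1 and 92.9% of those of Col3a1.

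Newborn cTECs differed from newborn mTEClo in a smaller set, with 1 of 37 genes at least 2-fold higher (background 2.98%) and 13 lower (10.9%). Col9a1 was 4.97-fold higher. Col7a1 (10.4-fold, 95% counting interval 9.49 to 11.5), Col4a4 (7.69-fold), Col26a1 (6.17-fold), Col9a3 (4.77-fold) and Col17a1 (4.37-fold) had the largest ratios down. Col7a1 and Col17a1, which both belong to the attachment of basal epithelium, were lower in cTECs in 5 of 5 batches, at 2.14 to 8.75 CPM against 26.9 to 69.2 CPM for Col7a1 and 6.18 to 22.96 CPM against 42.8 to 94.9 CPM for Col17a1. Over all genes with reads 9.51% were lower in every batch. In edgeR's fit over the batches, without a term for batch, 0 collagen genes were higher in cTECs (background 1.94%) and 4 lower (2.59%). The lower ones were Col7a1 (-3.40 ± 0.74), Col4a4 (-2.64 ± 0.72), Col17a1 (-1.92 ± 0.35) and Col13a1 (-1.88 ± 0.40). With the batch as a block 4 were lower too, but they were not all the same genes. Col18a1 was alike in the pools, at 507.2 CPM in cTECs and 510.8 CPM in mTEClo (ratio 0.993, 95% counting interval 0.980 to 1.01).

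**Figure D5:**
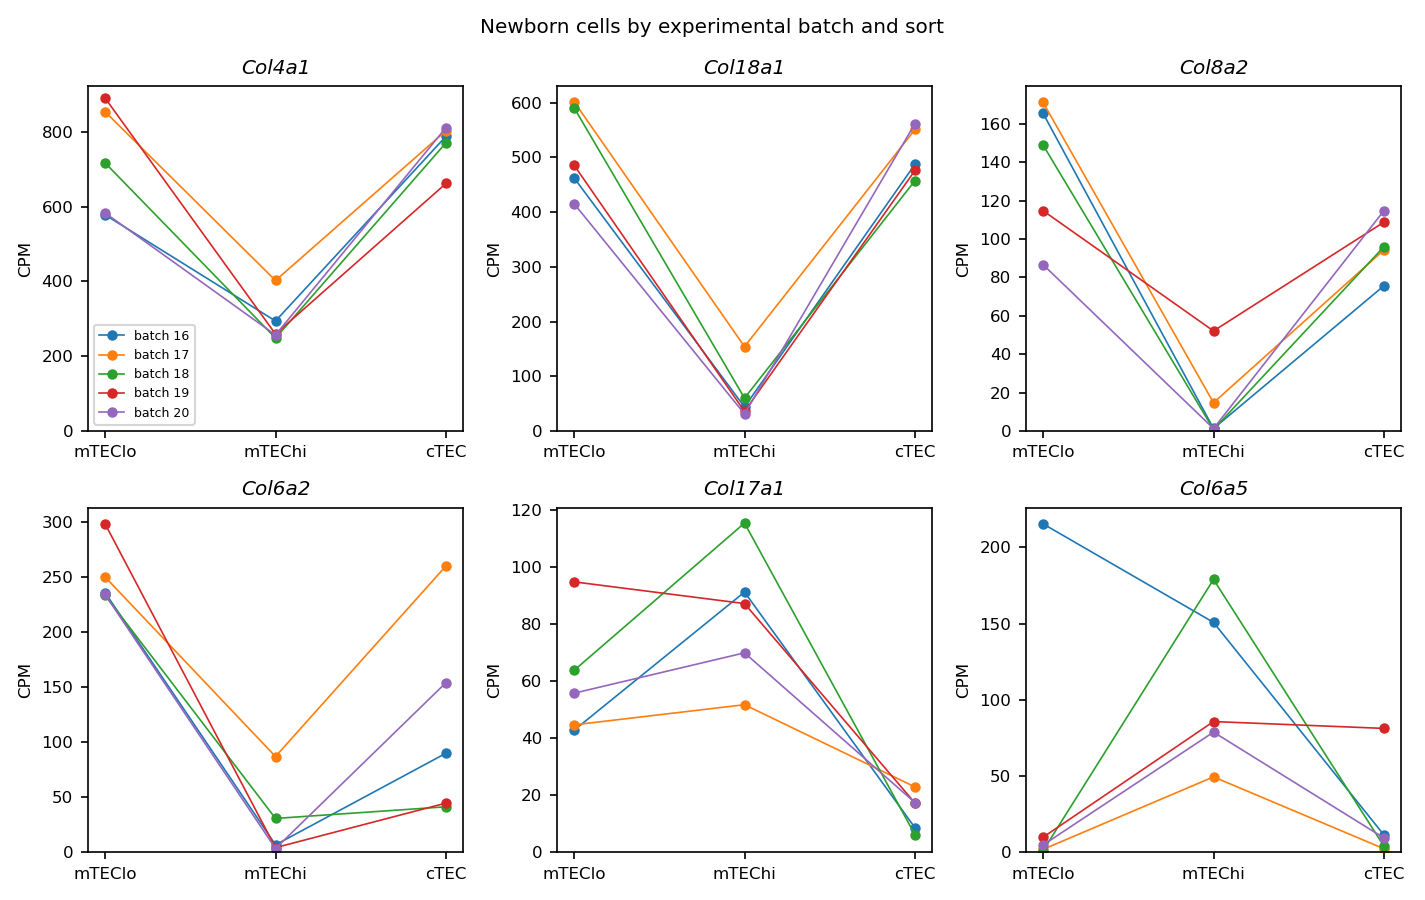
CPM of 6 collagen genes in newborn mTEClo, mTEChi and cTECs, with a line for each of the 5 experimental batches that hold all 3 sorts. Col18a1 is low in mTEChi and high in both other sorts in each batch, and Col17a1 is low in cTECs in each batch.

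Newborn cTECs were then set beside adult cTECs, with 1 pool of each. Of 31 genes, 16 were at least 2-fold higher in newborn (background 6.87%) and 4 lower (10.5%). Col5a3 (17.8-fold), Col3a1 (14.6-fold), Col6a5 (10.4-fold) and Col5a1 (9.36-fold, 95% counting interval 8.79 to 9.98) were higher, and Col6a3 was at 17.5 CPM in newborn and had 3 reads in adult cTECs (ratio 379.6, interval 129.7 to 1842.2). A single cell held 85.8% of the newborn Col6a3 reads and 1 cell 69.9% of those of Col3a1. Col5a1 by contrast stood at 148.6 CPM in newborn and 15.9 CPM in adult cTECs. Col7a1 (4.87-fold), Col5a2 (3.19-fold), Col4a4 (2.92-fold) and Col4a6 (2.212-fold) were lower in newborn. Without the fibroblast-marker cells 8 of 23 genes were higher (background 6.57%) and 4 lower (11.6%).

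Genes that make, bind or remove collagen were counted in lists drawn up by function. Between adult WT mTEChi and mTEClo, 2 of 34 genes of collagen processing were higher in mTEChi and 7 lower by edgeR's adjusted p, where 7.59% of all genes were called higher and 4.47% lower. The lysyl oxidases Loxl4 (3.03 ± 0.65) and Loxl3 (2.04 ± 0.48), which cross-link collagen, were higher on the log2 scale. The prolyl hydroxylase P3h3 (-2.52 ± 0.39), the procollagen chaperone Fkbp10 (-3.83 ± 0.59), the P3h3 partner P3h4 (-2.99 ± 0.59) and Mia3 (-1.01 ± 0.21), which loads procollagen for export, were lower. Of 21 basement membrane and hemidesmosome partners, 1 was higher (the laminin chain Lamc3, 5.95 ± 1.48) and 7 lower. Among those 7 were the laminin chain Lamb1 (-3.21 ± 0.46), the hemidesmosome linkers Dst (-1.88 ± 0.28) and Plec (-1.12 ± 0.20), and the tetraspanin Cd151 (-1.86 ± 0.27). Col17a1, a gene of the same structure, was higher in these cells.

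Of 12 collagen receptors, Lair1 was higher (9.90 ± 2.78) and Adgrg1 (-1.20 ± 0.19) and Ddr1 (-1.87 ± 0.41), a receptor kinase, lower in mTEChi. Of 9 breakdown genes tested, 0 were higher and 2 lower by edgeR, the gelatinase Mmp9 (-1.74 ± 0.39) and the metalloproteinase inhibitor Timp2 (-2.68 ± 0.72). Over all genes 7.59% were called higher and 4.47% lower in mTEChi. Adult cTECs against mTEChi had 3 processing genes (P4ha3, Fkbp10 and Colgalt2), 6 basement membrane partners (Dst, Lamc1, Cd151, Lamb1, Agrn and Plec), 2 receptors (Adgrg1 and Ddr1) and Mmp9 higher, and 0 lower, by edgeR, where 1.7% of all genes were called higher and 1.15% lower. In the Aire-KO and newborn comparisons, the interactions and cTECs against mTEClo, edgeR called 0 genes of these lists.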

How the data were processed

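RamDA-seq libraries of 1980 cells (2148 samples, 168 cells with 2 runs) were used. The authors deposited raw counts per gene, made with fastp 0.20.0, STAR 2.7.3a (mm10, Ensembl gene models), SAMtools 1.9, Picard 2.21.1 (duplicates removed) and HTSeq 0.11.2 without strand. Deduplication and unstranded counting can change low and overlapping genes. Their normalized table was not used, and 0 cell columns were left unmatched. Runs of a cell were summed, then cells of a group with the same age and sex, giving 13 pools of 8 groups: adult WT mTEChi 444, 12, 82 and 82 cells, mTEClo 217, 74 and 66, cTECs 77, Aire-KO mTEChi 338 and mTEClo 154, newborn mTEChi 171, mTEClo 124 and cTECs 139. Depth was 203010 to 1823784 reads per cell (median 692880), and intervals cover counting error only.

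All pools entered 1 edgeR 4.0.16 quasi-likelihood fit in R 4.3.3 (TMM, filterByExpr, 40148 genes, 5 residual degrees of freedom, Benjamini-Hochberg adjustment over all genes), with DESeq2 1.42.0 as an alternative. A gene was called at an adjusted p under 0.05 and a log2 fold change of at least 1. Groups of 1 pool take their spread from the others, and p-values measure only the spread between pools, which may be technical. Pairs of single pools were compared by CPM ratio with 95% exact binomial intervals, counting genes of at least 5 CPM in the higher pool. Scripts used Python 3.11.15, numpy 2.4.6, scipy 1.17.1 and pandas 2.3.3, and the fit was tested on simulated data. Gene positions came from GENCODE and promoter letters from RefSeq, with 9 collagen genes lacking an entry.

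The collagen genes, lists, markers and tests were chosen with earlier results of these data known. Basement membrane, anchoring, main fibrillar, Col6a1, Col6a2, multiplexin, Col9a3, Col17a1 and Col27a1 genes were named by rule, as were called genes, the 5 smallest p where none was called and the 5 largest ratios each way. Other genes were named after their values were seen. Alternatives were other size factors, no low-count filter, no minimum fold, mTEC pools alone, batches as units, cells thinned to 200000 reads, no cells with fibroblast markers, male pools of 4 and 5 weeks, and each replicate left out. The 5-of-5 tuft split, the removal of 1 cell and an edgeR fit over the 5 batches that the newborn sorts share were added after seeing the data. In that fit (12 residual degrees of freedom, 8 with the batch as a block) the pairing comes from the batch labels, and same-batch deviations of the sorts correlated at -0.092 to 0.192 over 14139 genes of at least 5 CPM.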

Additional observations from a re-analysis of the deposited data

Results flagged for a closer look

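Among the 4 adult WT mTEChi pools, the highest pool lay far from the other 3 for 8 of the 44 collagen genes. The rule was Dixon's criterion at the 95% level on CPM. Chance alone meets it in about 1 in 20 groups where values are normal with equal spread. That was not tested, and the pools differ widely in cell number. For 6 of the 8 genes the high pool was pool 2, which holds 12 cells. There Col6a3 was at 469.4 CPM (35.04 to 64.26 in the others), Col17a1 at 231.9 CPM (125.6 to 129.4) and Col20a1 at 227.4 CPM (18.4 to 22.8). Col26a1 was at 141.3 CPM (0.144 to 4.25), Col9a2 at 41.42 CPM (8.38 to 11.4) and Col8a1 at 16.9 CPM (0.144 to 1.73). For 2 genes the high pool was pool 1, with Col11a1 at 4.856 CPM (0.0825 to 0.376) and Col28a1 at 1.636 CPM (0.125 to 0.316).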

How the results depend on the processing

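Followed under the alternatives were the 55 log2 fold changes of collagen genes called, or with an unadjusted p under 0.05, in edgeR's main fit. Choice by that p makes a reversal unlikely, and other printed fold changes were not followed. All 55 kept their direction in every value. Of these values 81.9% stayed on their side of the threshold, 53 (6.19%) fell short of it and 11.9% newly passed it. Counts of called collagen genes moved more, together with the share called over all genes (given in parentheses), and the cause was not tested. For mTEChi against mTEClo (9 genes, 12.1%), DESeq2 gave 20 (25.9%), batches as units 22 (34.3%), thinned cells 14 (15%), the removal of fibroblast-marker cells 3 (3.91%), male pools of 4 and 5 weeks 14 (6.84%), and leaving out 1 replicate 3 to 14 (4.97% to 14%). For cTECs against mTEChi (5 genes, 2.85%), DESeq2 gave 18 (18%), batches 10 (8.55%), the removal of fibroblast-marker cells 1 (0.847%), male pools 17 (4.51%) and leaving out 1 replicate 1 to 13 (1.2% to 6.39%). For cTECs against mTEClo (0 genes), they were 6 by DESeq2 (6.74%), 2 by batches (2.35%), 9 with male pools (2.54%) and 0 to 6 by replicate (0% to 2.19%). From 0 calls, Aire-KO mTEChi moved to 1 by DESeq2 (2.15%) and 9 by batches (6.26%), Aire-KO mTEClo to 1 with male pools (0.0357%) and 0 to 1 by replicate (0% to 0.00761%), newborn mTEChi to 2 by batches (2.46%), and newborn mTEClo to 3 by DESeq2 (5.96%), 15 by batches (15.4%), 12 with male pools (2.18%) and 0 to 9 by replicate (0% to 1.45%). The newborn interaction gave 5 by batches (5.22%) and 1 with male pools (0.123%). Of 20 genes past the fold in newborn against adult cTECs, 12 were left without fibroblast-marker cells. Whether batches share mice is not given in the labels. The labels number no mice, so pools could not be paired, but the 3 newborn sorts share 5 batches. With the batch as a replicate block, a paired fit, edgeR called 21 collagen genes between newborn mTEChi and mTEClo in place of 22 (19 shared), 4 in place of 4 between cTECs and mTEClo (3 shared) and 21 in place of 23 between cTECs and mTEChi (19 shared). Groups of 1 pool and pools of few cells limit all comparisons.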
